A study of Homo sapiens with 2 samples.

Results

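The protein disulfide isomerases and endoplasmic reticulum (ER) oxidases described here are 10 genes, P4HB, PDIA3, PDIA4, PDIA5, PDIA6, TXNDC5, ERO1A, ERO1B, ERP29 and ERP44. They were taken by gene name from the deposited expression tables, and they are 10 of the 61806 Ensembl genes in the count table. RNA-seq was performed on HEL, a human erythroleukemia cell line with a WT genotype label, after 24 h with L1 at 1 µM or with 0.5% DMSO as the vehicle. L1 is a derivative of diindolylmethane, an indole compound formed from cruciferous vegetables. Each condition was 1 library from a single cell line, so a spread between cultures was not measured, no test was run, and every difference below is a difference between 2 libraries.

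Proteins that enter the ER fold in an oxidizing lumen, where pairs of cysteines are joined into disulfide bonds. Protein disulfide isomerases (PDIs) carry thioredoxin-like domains that make, break and exchange these bonds, and the ERO1 flavoenzymes reoxidize them by passing electrons to oxygen, which yields hydrogen peroxide. Many of these genes are known targets of the unfolded protein response, in which ATF6, XBP1 and ATF4 raise the folding capacity of the ER when unfolded proteins accumulate. The RNA-seq comparison addresses which genes differ in expression when HEL cells are given L1.

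Total depth was 32556872 counts for DMSO and 27135647 counts for L1. The counts were scaled by the TMM method of edgeR, which set the DMSO library at 1.16 times the effective size of the L1 library. The libraries carried the markers of the labelled cell line: 12 of 13 erythroid and megakaryocytic genes had at least 10 counts in 1 library, with a summed FPKM (the deposited level per unit of gene length and depth) of 1519 under DMSO and 1920 under L1. PF4 was the exception at 0 counts. The marker with the highest FPKM was HBG2, a fetal globin gene, at 759 under DMSO and 883 under L1. These markers moved apart, with log2 ratios from -1.25 to 1.78. The 3 past 2-fold, named after their values were seen, were HBG1 (3.44-fold higher), GYPB (2.15-fold higher) and TFRC (0.42 times its DMSO level), where HBG1 and GYPB have near-identical copies among which reads may be divided. Their part in the results below was not tested. Of 14 markers of T, B, epithelial, fibroblast, endothelial and liver cells, 8 had 0 counts in both libraries, and the highest was PECAM1 with an FPKM of 19.0 under DMSO and 14.3 under L1. In a bulk library, fewer cells that express a gene and less RNA per cell cannot be told apart.

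Sequence before the start sites is shown for the members whose upstream sequence holds the ER stress response element (ERSE), the motif through which ATF6 acts. The motif searched was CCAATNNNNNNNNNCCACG on both strands of the 250 bases before each RefSeq start on GRCh38.p14, and 0.0740% of all 35116 such windows held it. Windows were at hand for 9 of the 10 members (12 windows), and 2 members, PDIA6 and ERO1B, held a match. PDIA3 had no window. The PDIA6 window is chr2:10812786-10813035 on the minus strand and the ERO1B window is chr1:236281959-236282208 on the minus strand, both written 5′ to 3′ along the gene with the match in capitals.
PDIA6: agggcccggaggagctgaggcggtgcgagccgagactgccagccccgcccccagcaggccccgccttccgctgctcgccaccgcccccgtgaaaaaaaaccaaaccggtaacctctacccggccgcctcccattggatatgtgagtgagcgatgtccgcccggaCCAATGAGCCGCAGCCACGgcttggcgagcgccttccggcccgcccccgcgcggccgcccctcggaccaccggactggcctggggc
ERO1B: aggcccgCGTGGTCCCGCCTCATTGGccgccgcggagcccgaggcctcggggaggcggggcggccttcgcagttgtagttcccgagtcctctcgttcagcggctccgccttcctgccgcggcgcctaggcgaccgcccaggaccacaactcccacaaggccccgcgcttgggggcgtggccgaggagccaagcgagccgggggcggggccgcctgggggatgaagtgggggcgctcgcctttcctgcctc

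The PDIA6 match runs along the gene's own strand from 86 to 68 bases before the start of that window. Another RefSeq start of PDIA6, with the window chr2:10832486-10832735, had no match. The ERO1B match is on the other strand, from 243 to 225 bases before its start. For comparison, the matches of the ER chaperone genes HSPA5, HSP90B1, CALR and CANX are given in capitals as they read along each gene. HSP90B1 held 2 matches and the others 1 position each.
HSPA5, plus orientation: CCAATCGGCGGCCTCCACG
HSP90B1, plus orientation: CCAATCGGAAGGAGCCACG
HSP90B1, minus orientation: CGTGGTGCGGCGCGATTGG
CALR, minus orientation: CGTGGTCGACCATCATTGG
CANX, plus orientation: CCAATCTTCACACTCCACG
A shorter XBP1 site, TGACGTGG, was found before 1 start of TXNDC5, from 92 to 85 bases upstream, and in 0.612% of all windows. The short core ACGTG is part of that site and also of hypoxia response elements. It was found in 6 of the 12 member windows, before 6 of the 9 members with a window, and in 18.5% of all windows. These are matches of letters, and binding was not measured.

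Across the 10 genes the differences were modest. PDIA3, ERP44, PDIA6, PDIA5, PDIA4, ERO1B and TXNDC5 were higher in the L1 library, and P4HB, ERO1A and ERP29 were lower. None of the 10 reached 2-fold in either direction on TMM-scaled counts with a prior count of 2, where the background among the 18123 genes with at least 10 counts in 1 library was 7.12% for the higher side and 4.83% for the lower side. At 1.5-fold, 1 member (PDIA3) was higher, against a background of 13.8%, and none was lower, against 11.4%. PDIA3 stood at this threshold, with a counting interval from 1.48-fold to 1.53-fold, and fell short of it with DESeq2 size factors (log2 ratio 0.55), with its pseudogenes summed in (0.58) and with overlapping genes of either strand summed in (0.58). The 1.5-fold threshold was passed by TXNDC5, at a log2 ratio of 0.75, when the overlapping readthrough gene described below was summed in. A log2 ratio above 0 was found for 7 of 10 members and for 49.6% of all genes kept. The median log2 ratio of the members was 0.38, and that of all genes kept was -0.004. Summed over the 10 genes, the counts were 59445 under DMSO and 65480 under L1, which gave 0.35 on the log2 scale (95% interval 0.34 to 0.37). The intervals given for ratios here and below are exact Clopper-Pearson intervals from the split of the counts, at 95%, and cover counting error only.

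**Figure D1:**
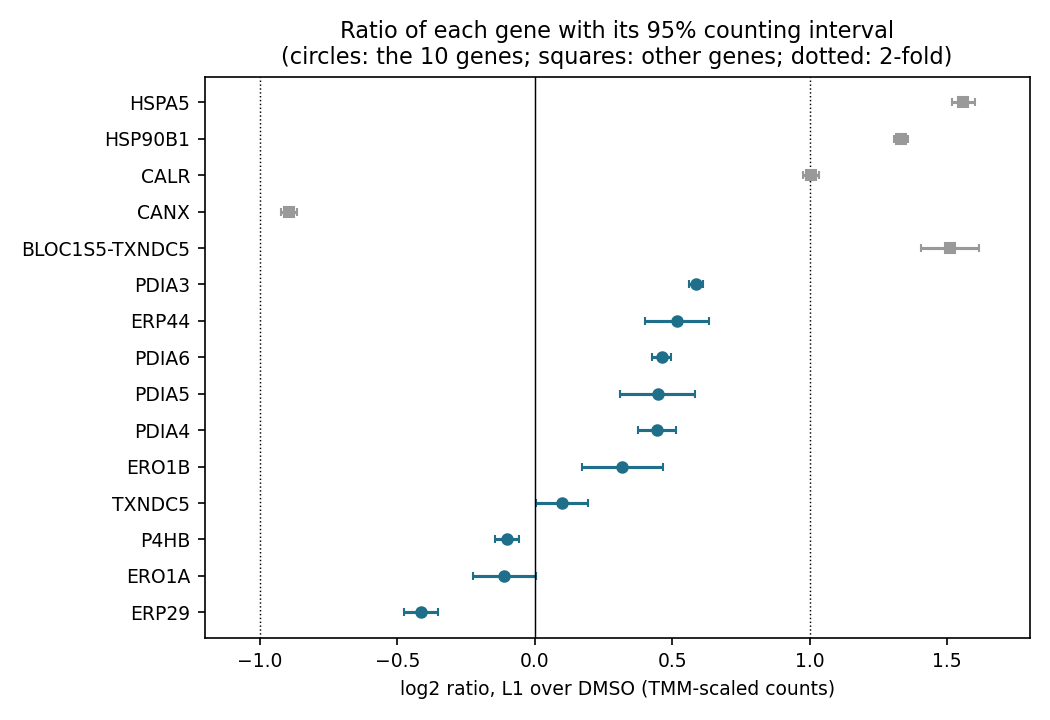
Log2 ratio of L1 over DMSO (horizontal axis, TMM-scaled counts without a prior count) for the 10 genes (circles) and 5 other genes named in the text (squares), with 95% Clopper-Pearson counting intervals. The 10 genes lie between -0.41 (ERP29) and 0.59 (PDIA3), inside the dotted 2-fold lines, while HSPA5 lies at 1.56 and CANX at -0.89.

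PDIA3 encodes ERp57, the isomerase that works on glycoproteins held by calnexin and calreticulin. It lies on chromosome 15 from 43746392 to 43773279 (GENCODE release 29, GRCh38, as for all genes below). Its counts were 23154 under DMSO and 29974 under L1, its FPKM was 61.9 under DMSO and 92.8 under L1, and its log2 ratio of 0.59 (0.56 to 0.61) was the highest of the 10 genes. Of all genes kept, 13.8% had a higher ratio. The PDIA3P1 pseudogene on chromosome 1 shares 20.5% of the 31-base words of the PDIA3 transcripts, and had 1349 counts under DMSO and 1604 under L1. Its own log2 ratio was 0.46, and with both PDIA3 pseudogenes summed into PDIA3 the ratio was 0.58, which moved the value by less than its counting interval. On the opposite strand, ELL3 (71 counts under DMSO and 63 under L1) covers 14.8% of the PDIA3 exon bases and the pseudogene CATSPER2P1 covers 4.15%.

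PDIA6 (chromosome 2 from 10783391 to 10837977), an isomerase that cooperates with the chaperone BiP and that holds the ERSE match above, had the highest deposited level of the 10 genes. Its FPKM was 96.0 under DMSO and 132 under L1, from 12502 and 14849 counts, a log2 ratio of 0.46 (0.43 to 0.50). Exons of ATP6V1C2, a gene on the opposite strand, cover 25.2% of the PDIA6 exon bases. ATP6V1C2 itself had only 314 counts under DMSO and 444 under L1, and the sum of both genes had a log2 ratio of 0.47.

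PDIA4 and PDIA5 had nearly the same ratio at different levels. PDIA4, or ERp72 (chromosome 7 from 149003062 to 149028641), an isomerase with several thioredoxin-like domains, had 3156 counts under DMSO and 3709 under L1, with FPKM values of 30.1 and 41.0 and a log2 ratio of 0.45 (0.38 to 0.51). PDIA5 (chromosome 3 from 123067062 to 123225227), an isomerase linked to the activation of ATF6, had 802 counts under DMSO and 943 under L1, FPKM values of 6.20 and 8.45, and also a log2 ratio of 0.45 (0.31 to 0.58). The exons of SEC22A overlap 12.2% of the PDIA5 exon bases on the same strand, and the sum of PDIA5 and SEC22A had a log2 ratio of 0.34 (0.23 to 0.46). The PDIA4 transcripts share almost no sequence with other genes, 0.031% of their words.

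P4HB did not follow these 4 isomerases. It encodes PDI itself, the founding member of the family and also the beta subunit of collagen prolyl 4-hydroxylase, and lies on chromosome 17 from 81843159 to 81860694. It had 9372 counts under DMSO and 7538 under L1, FPKM values of 26.5 and 24.7, and a log2 ratio of -0.10 (-0.15 to -0.06). The interval did not overlap that of any of PDIA3, PDIA4, PDIA5 or PDIA6. An antisense gene, AC145207.3, with 351 counts under DMSO and 346 under L1, covers 9.98% of its exon bases, and a strand setting of the counting is not given in the sources used here.

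ERP29 was the member with the lowest ratio. Its product, an escort protein of the ER, has a thioredoxin-like fold but lacks the active-site cysteine pair of the catalytic PDIs. ERP29 (chromosome 12 from 112013316 to 112023451) had 5329 counts under DMSO and 3450 under L1, FPKM values of 55.0 and 41.3, and a log2 ratio of -0.41 (-0.48 to -0.35). Of all genes kept, 17.6% had a lower ratio. The antisense gene AC073575.2, which covers 17.5% of its exon bases, had 40 counts under DMSO and 28 under L1.

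ERP44 lacks a complete active-site pair as well, and it acts as a retention factor that binds ERO1 proteins and other clients and returns them to the ER. ERP44 (chromosome 9 from 99979179 to 100099040) was on the other side of the set, with 1096 counts under DMSO and 1354 under L1, FPKM values of 2.43 and 3.47, and a log2 ratio of 0.52 (0.40 to 0.63). The ratios of the non-catalytic members ERP29 and ERP44 thus lay on opposite sides of 0, and only 0.311% of the words of ERP44 occur in another gene.

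**Figure D2:**
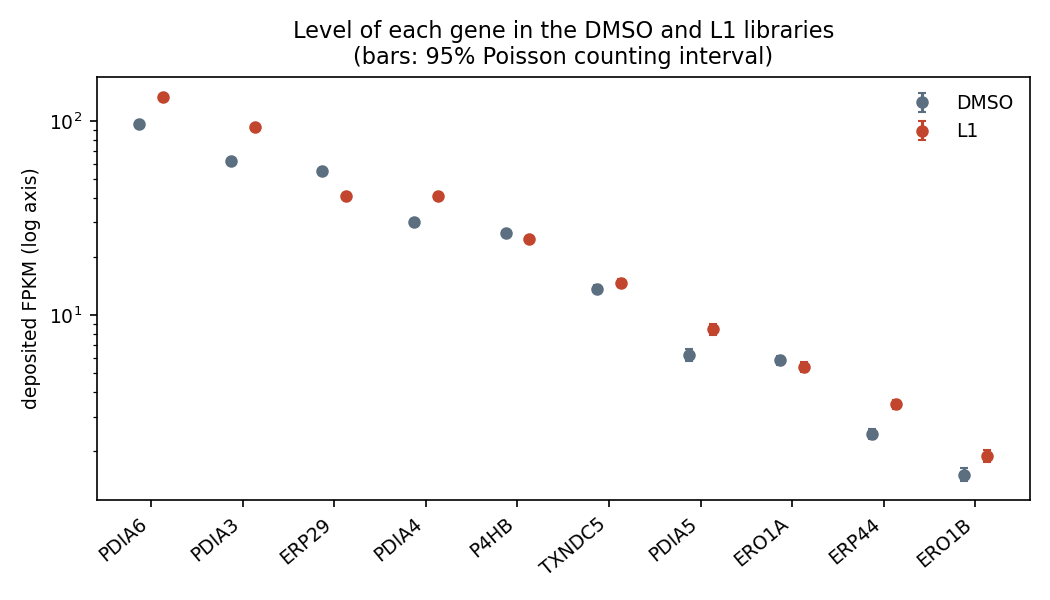
Deposited FPKM (vertical axis, log scale) of the 10 genes in the DMSO and L1 libraries, in the order of the DMSO level, with 95% Poisson counting intervals. PDIA6 is highest in both libraries (96.0 and 132), ERO1B is lowest (1.51 and 1.88), and ERP29 and PDIA4 meet in the L1 library at 41.3 and 41.0.

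The oxidases had low levels, and ERO1B had the lowest FPKM of the 10 genes in both libraries. ERO1A (chromosome 14 from 52639916 to 52695900), the broadly expressed form, which is also known as a hypoxia target, had 1401 counts under DMSO and 1119 under L1, FPKM values of 5.84 and 5.41, and a log2 ratio of -0.11 (-0.23 to 0.003). ERO1B (chromosome 1 from 236215555 to 236281985), the form known from secretory tissues such as pancreas and as a target of the unfolded protein response, had 736 counts under DMSO and 792 under L1, FPKM values of 1.51 and 1.88, and a log2 ratio of 0.32 (0.17 to 0.47). The interval of ERO1A included 0, and the intervals of the 2 oxidases did not overlap. ERO1A made up 65.6% of the ERO1 counts under DMSO (exact binomial interval 63.5% to 67.6%) and 58.6% under L1 (56.3% to 60.8%). Summed, the oxidases had 2137 counts under DMSO and 1911 under L1, a log2 ratio of 0.052 (-0.038 to 0.14). Together they made up 3.59% of the counts of the 10 genes under DMSO and 2.92% under L1, while PDIA3 and PDIA6 together made up 60.0% and 68.5%.

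The value of TXNDC5 depends on a neighbour. TXNDC5, or ERp46, an isomerase with 3 thioredoxin-like domains, lies on chromosome 6 from 7881517 to 7910814, and the readthrough gene BLOC1S5-TXNDC5, which joins BLOC1S5 to TXNDC5, runs from 7881522 to 8064364 on the same strand. TXNDC5 had 1897 counts under DMSO and 1752 under L1, FPKM values of 13.7 and 14.6, and a log2 ratio of 0.10 (0.004 to 0.19). BLOC1S5-TXNDC5 had 1009 counts under DMSO and 2478 under L1, FPKM values of 10.5 and 29.8, and a log2 ratio of 1.51 (1.40 to 1.62).

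In GENCODE release 29, 2658 of the 3030 exon bases of the readthrough gene are also TXNDC5 exon, the other 372 are BLOC1S5 exon, and 0 belong to it alone. TXNDC5 has 1729 of its 4387 exon bases to itself. The readthrough took 34.7% of the counts of this pair under DMSO (33.0% to 36.5%) and 58.6% under L1 (57.1% to 60.1%). Summed over TXNDC5 and BLOC1S5-TXNDC5, the counts were 2906 under DMSO and 4230 under L1, a log2 ratio of 0.75 (0.69 to 0.82). This sum is above the ratio of every other member. BLOC1S5, whose own start the readthrough would use, had 688 counts under DMSO and 509 under L1, a log2 ratio of -0.22 (-0.39 to -0.05), and with it added the locus had 0.61. How the deposited counts were divided between these gene models is not given in the sources used here, and whether that division differed between the libraries was not tested.

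**Figure D3:**
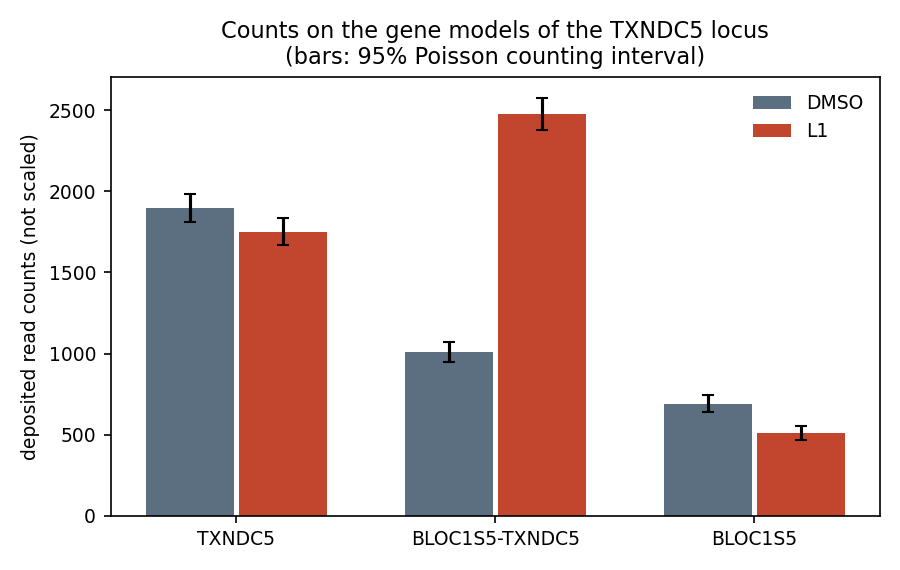
Deposited read counts (vertical axis, not scaled for depth) on TXNDC5, the readthrough BLOC1S5-TXNDC5 and BLOC1S5 in the DMSO and L1 libraries, with 95% Poisson counting intervals. Only the readthrough has more raw counts under L1, 2478 against 1009, while TXNDC5 is 1752 against 1897 and BLOC1S5 is 509 against 688. The L1 library is the smaller 1, and on scaled counts the log2 ratio of TXNDC5 is 0.10 (0.004 to 0.19).

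In the order of their ratios, most neighbours among the 10 genes had overlapping intervals. Only TXNDC5 and P4HB, and ERO1A and ERP29, had intervals that did not overlap. Overlap of intervals is not a test of a difference. Over all 45 pairs of members, 31 had intervals that did not overlap. Counting intervals narrow with depth, and every member had at least 1528 counts over both libraries. The same share was not computed for pairs of other genes, so this number shows nothing particular to the members. The order of the levels depended on the length used. By deposited FPKM under DMSO it was PDIA6, PDIA3, ERP29, PDIA4, P4HB, TXNDC5, PDIA5, ERO1A, ERP44 and ERO1B, where the counting intervals of PDIA5 and ERO1A overlapped. The order was the same under L1, where those of ERP29 and PDIA4 overlapped.

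The FPKM values imply gene lengths of 11.1 kb for P4HB and 11.7 kb for PDIA3, against 2.60 and 3.73 kb for the principal transcripts in GENCODE release 29. For PDIA6 the implied length was 4.07 kb against 2.34 kb. Against all exons of a gene in that release, the implied length was longer for P4HB (5.30 kb of exons), PDIA3 (4.24 kb), ERO1B (15.3 kb against 5.36 kb) and ERP44 (14.1 kb against 4.85 kb), and close for the other members and for BLOC1S5-TXNDC5. The deposited counts may therefore rest on another annotation than the release from which overlaps are given here. Per kilobase of principal transcript and scaled depth, PDIA3 came highest with 194 under DMSO and 291 under L1, followed by PDIA6 with 167 and 230 and by P4HB with 113 and 105. Differences in level between members therefore rest in part on the gene length used.

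**Figure D4:**
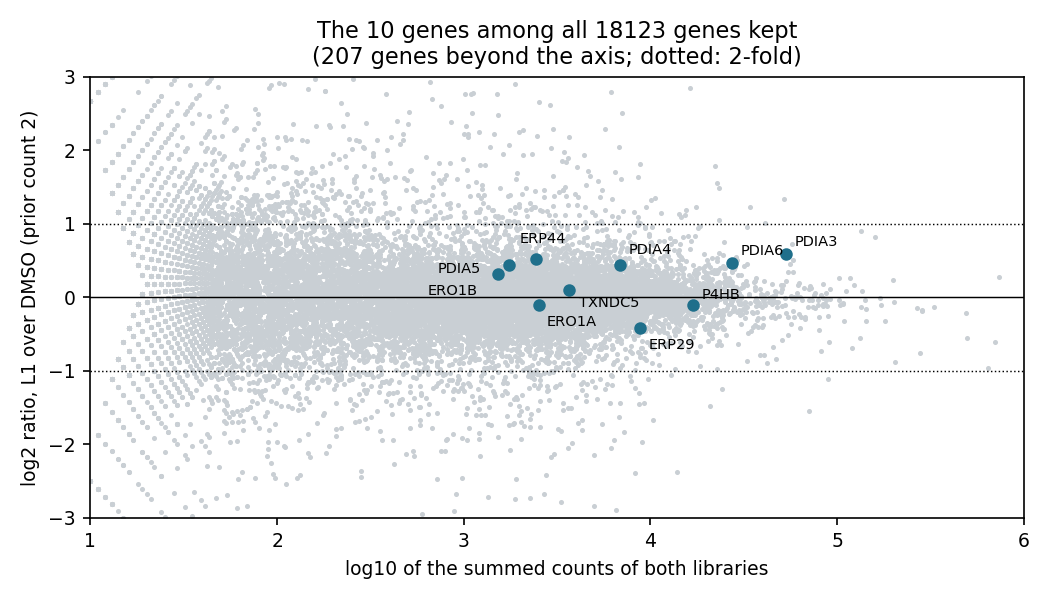
Log2 ratio of L1 over DMSO with a prior count of 2 (vertical axis) against the log10 of the summed counts of both libraries (horizontal axis) for all 18123 genes kept (grey) and the 10 genes (blue). The members lie within the dotted 2-fold lines, and 207 grey genes lie beyond the vertical axis.

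Other genes of disulfide chemistry gave a median close to that of all genes. Of 14 other PDI family genes, 10 had at least 10 counts in 1 library, 5 of these had a log2 ratio above 0, and none was 2-fold higher or lower (median log2 ratio -0.029). PDILT, AGR2 and AGR3 had 0 counts in both libraries. Among those with at least 100 counts, the ends were ERP27, a non-catalytic PDI (log2 ratio 0.48), TMX2 (0.36) and TXNDC11 (0.33) on the higher side, and TXNDC16 (-0.31), TMX3 (-0.20) and TMX4 (-0.54) on the lower side. The TMX proteins are the membrane-anchored members of the family.

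Of 16 other genes of ER thiol oxidation and reduction, 15 were kept, 7 had a log2 ratio above 0, 1 was at least 2-fold higher and none 2-fold lower (median -0.018). The highest was CRELD2, an ER stress-induced protein with PDI-like activity, with 225 counts under DMSO and 393 under L1 and a log2 ratio of 1.02 (0.78 to 1.26). Next among genes with at least 100 counts were SELENOK (0.67) and SELENOS (0.53), selenoproteins of ER-associated degradation. The lowest were VKORC1 (-0.35), the vitamin K epoxide reductase, SELENOM (-0.28, interval -0.70 to 0.13) and GPX7 (-0.25), a peroxidase that uses the hydrogen peroxide made by ERO1.

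Partners of the PDI proteins lay on both sides of 0. CALR, which encodes the soluble lectin calreticulin that recruits PDIA3, had 15101 counts under DMSO and 26153 under L1, a log2 ratio of 1.01 (0.98 to 1.03). CANX, which encodes its membrane-bound counterpart calnexin, had 28632 counts under DMSO and 13290 under L1, a log2 ratio of -0.89 (-0.92 to -0.86). TAPBP, which encodes tapasin, bound by PDIA3 in the loading of MHC class I, had 2263 and 849 counts, 0.435 times its DMSO level (log2 interval -1.32 to -1.09). The ratio of PDIA3 (0.59) lay between those of its lectin partners. Over the 12 partner genes kept, 6 had a log2 ratio above 0, with 1 past 2-fold on each side (CALR higher, TAPBP lower) and a median of 0.022. UGGT2, a sensor of glycoprotein folding, had -0.48. The KDEL receptor genes KDELR2 and KDELR3, which return ER proteins from the Golgi, had 0.12 each, and the interval of KDELR3 (-0.20 to 0.44) included 0. Their relatives in the list, named after their values were seen, lay on the other side of 0. UGGT1 had 0.11 (0.05 to 0.16) and KDELR1 had -0.18 (-0.24 to -0.11).

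The ER lumenal chaperones had a higher median ratio than the 10 PDI and oxidase genes (0.38), though the ranges of both lists overlapped. All 10 of that list lay above 0 on the log2 scale, 2 exceeded 2-fold, and the median was 0.74. HSPA5, which encodes BiP, had 6430 counts under DMSO and 16325 under L1 (log2 ratio 1.56), HSP90B1 had 16469 and 35776 (1.33), and SDF2L1 had 287 and 454 (0.87). The smallest ratios of the list, 0.36 for DNAJB9, 0.39 for HYOU1 and 0.43 for SIL1, were below those of PDIA4, PDIA5 and PDIA6. The interval of HYOU1 (0.35 to 0.42) did not overlap that of PDIA6, while those of DNAJB9 (0.13 to 0.59) and SIL1 (0.27 to 0.59) did. Summed FPKM was 293 under DMSO and 520 under L1 for these chaperones, and 299 and 366 for the 10 PDI and oxidase genes.

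Of 9 sensors and factors of the unfolded protein response, 7 lay above 0 on the log2 scale and 2 exceeded 2-fold, with a median of 0.098. DDIT3, which encodes CHOP, had a log2 ratio of 1.63, XBP1 had 1.03 and PPP1R15A, a CHOP target, had 0.66. ATF6B (-0.17), ATF4 (-0.12) and TRIB3 (0.033) were at the other end. Hypoxia response genes, listed because ERO1A is one of them in other cells, had a median of 0.058 over 17 genes kept, with VEGFA (-0.70), BNIP3 (-0.23) and SLC2A1 (-0.23) lowest and ALDOC (0.51), KDM3A (0.45) and PFKFB4 (0.41) highest among genes with at least 100 counts. The 1 gene of that list past 2-fold, ADM, was named after its values were seen, with 0 counts under DMSO and 17 under L1.

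**Figure D5:**
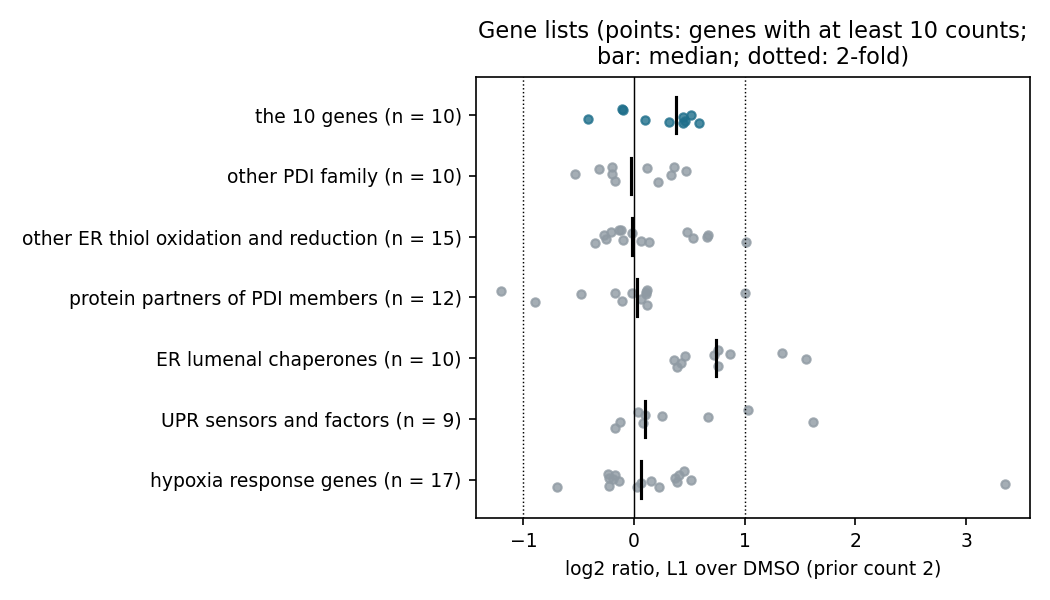
Log2 ratio of L1 over DMSO with a prior count of 2 (horizontal axis) for the genes with at least 10 counts in 7 lists, 1 point a gene, with the median as a bar. The 10 PDI and oxidase genes have a median of 0.38, the ER lumenal chaperones 0.74, and the other lists lie between -0.029 and 0.098; the point past 3 is ADM, with 0 counts under DMSO.

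Among all genes kept that have an upstream window, 15 held the ERSE motif, PDIA6 and ERO1B among them. This set was drawn up after the ratios were known, and it includes chaperone genes whose higher ratios are given above. A role of the motif in these ratios was not tested. Of the 15, 11 lay above 0 on the log2 scale, against 48.9% of the 11373 genes kept with a window. At 2-fold, 5 were higher (HSPA5, HSP90B1, XBP1, CRELD2 and CALR), 33.3% against 5.27% of the genes with a window. These 5 were known to be higher before the set was drawn up, so the shares are no test of the motif. PDIA6 (0.46) and ERO1B (0.32) came next in order, and CANX, with the same motif, had the lowest ratio of the 15. P4HB, PDIA4, PDIA5, TXNDC5, ERP29, ERP44 and ERO1A had windows without an exact match, and their ratios ran from -0.41 to 0.52. Inexact matches and sequence further upstream were not searched.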

How the data were processed

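RNA was captured on mRNA beads and sequenced on an Illumina NovaSeq as paired reads, 1 library per condition. Per the labels, the authors' processing notes name fastp 2.0, HISAT2 2.1.0, StringTie and hg38, with no annotation or counting settings. The authors deposited raw read counts without normalization, and FPKM values for 13924 genes, which carry the library ratio of 1.16 that TMM gives.

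TMM factors came from edgeR 4.0.16 in R 4.3.3, and DESeq2 1.42.0 size factors were an alternative. Other steps used Python 3.11.15. Genes with at least 10 counts in 1 library were kept (18123), and a prior count of 2 was added for ratios compared across genes. Intervals cover counting error only. Gene positions, exon overlaps and shared 31-base words were taken from GENCODE release 29, which holds 58254 of the 61806 identifiers, and upstream sequences from RefSeq (GRCh38.p14). Symbols came from the deposited files where given and otherwise from a reference list of gene names, for 61765 identifiers in all. The scripts were tested on simulated data.

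The members and lists were chosen with earlier results of these data known. Named were all members and BLOC1S5-TXNDC5, from each other list except the cell markers (given by range, count and highest FPKM) the 3 highest and 3 lowest ratios among genes reaching 100 counts in either library, and pseudogenes and overlapping genes of members. 1 stray row without a value was left out.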

Additional observations from a re-analysis of the deposited data

How the results depend on the processing

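No member passed 2-fold in either direction (0 higher, 0 lower) under DESeq2 size factors, total counts, upper quartile scaling, the FPKM values, both summations of copies, prior counts of 0.5 and 5, minimum counts of 0, 100 and 1000 (the last added after the data were seen), and with the whole interval required past 2-fold. Some of these settings could not change this result. The FPKM values carry the same library ratio as TMM, and every member had more than 100 counts in both libraries. The prior counts are small beside the counts of the members, and the whole-interval rule is stricter than the main one. With a 1.5-fold threshold the number higher was 1 (PDIA3), which follows from the lower threshold and lies on it. The scalings moved every log2 ratio by at most 0.050. The median log2 ratio of the members, 0.38 in the main setting, was 0.35 with DESeq2 size factors and 0.43 with total counts. With a minimum of 1000 counts it was 0.27. There were 51 values of single members under the alternatives. Of these, 43 stayed within the gene's counting interval, 8 moved out of it and 0 changed sign where the interval excluded 0. The 43 include the FPKM ratios of all members, which equal the TMM ratios and could not move. For PDIA5 and TXNDC5, the sums over both strands repeat those over the same strand. The only large move was TXNDC5, to 0.75 with the readthrough summed, by its construction. By FPKM instead of counts, the readthrough share of the TXNDC5 pair was 43.4% in DMSO and 67.1% in L1, since FPKM divides by length. The level order by transcript length and the sums over both strands were also chosen after the data were seen. No paired analysis was possible because there is only a single library for either treatment, which also precludes leaving out a replicate. Variation between cultures and an effect of L1 cannot be told apart.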
